A study of Mus musculus with 36 samples.

Results

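Ccl2, Ccl3, Ccl4, Ccl7, Ccl8, Ccl9 and Ccl12 are CC chemokines that attract monocytes and other leukocytes, and Ccr1 and Ccr2 are receptors that read them. Every probe set whose array annotation gave 1 of these 9 symbols alone was taken, which gave 9 of the 18193 genes so annotated and 14 of the 45037 probe sets tested. Ccl9 and Ccr1 had 2 probe sets each, Ccr2 had 4, and the other 6 genes had 1 each. Each of the 14 was followed over 12 combinations of genotype and exposure in mouse lung.

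Whole-lung RNA of 36 male mice aged 7 to 13 weeks was hybridised to Affymetrix mouse genome arrays, 1 mouse per array and 3 mice per group. Notch3-/- mice (allele Notch3tm1Grid), Notch4-/- mice (allele Notch4tm1Grid) and WT mice (B6129SF1/J) breathed filtered air, or 0.3 ppm ozone without a break for 6, 24 or 48 hr. The WT mice were first-generation hybrids and the knockouts were stocks of mixed background, so a difference of strain background and the missing receptor cannot be told apart in these samples. Each genotype had 1 air group, which served as the control of all 3 ozone times, and both knockouts were set against the same WT mice. The sample labels give no duration for the air mice. Ozone and time in the chamber can therefore not be told apart in a difference from air. The deposited values were log2 values set, for every probe set, to a median of 0 over the 36 arrays, so a level of 0 is that median, a difference of 1 is a doubling, and neither brightness nor a level of one gene against another can be read. Presence of lung markers could not be read for the same reason.

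The Notch3 probe set 1421964_at lay between -2.43 and -1.71 in Notch3-/- mice, against -0.37 to 0.88 in WT mice. The Notch4 probe set 1436901_at did not separate the genotypes, at -0.23 to 0.16 in Notch4-/- and -0.31 to 0.25 in WT mice. Notch4 probe set 1456263_at was lower in Notch4-/- mice, at -0.82 to -0.19 against -0.14 to 0.58. Notch4 probe set 1449146_at was at -3.42 or below in all ozone-exposed Notch4-/- mice, against -0.38 to 0.58 in WT mice. Among the 3 air-exposed Notch4-/- mice it was at -1.97, -1.40 and -3.69, so mice 1 and 2 of that group stood between their genotype and WT. For some results that rest on the Notch4-/- air group, values without those 2 mice are therefore also given. There the remaining mouse was assumed to vary like the other groups. Where no such value is given, no stability is implied. In whole lung, more cells of a type and more RNA per cell cannot be told apart.

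Chemokines of this family are secreted by epithelium, macrophages, endothelium and stromal cells of an injured tissue and bind G-protein-coupled receptors on leukocytes, which then move towards the source. The Ccr2 pathway, with Ccl2, Ccl7 and Ccl12 as ligands, is known for releasing monocytes from the bone marrow and bringing them into inflamed lung. Ccr1, read by Ccl3, Ccl7 and Ccl9 among others, is carried by monocytes, macrophages and neutrophils. Mouse Ccl8 is best known as a ligand of Ccr8.

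The genes lie in families on the chromosomes. In the RefSeq annotation of GRCm38.p6, Ccl2 is followed by Ccl7 on chromosome 11, Ccl12 is followed by Ccl8 with Ccl11 just before the pair, and Ccl9, Ccl3 and Ccl4 stand in a second group with Ccl5 and Ccl6. Ccr1 and Ccr2 are on chromosome 9. RefSeq promoter sequences matched 6 of the 9 members: Ccl3, Ccl8, Ccl9, Ccl12, Ccr1 and Ccr2. The entries of Ccl2, Ccl4 and Ccl7 were not matched. The 250 bases before the start of Ccl12 and Ccl8 are shown because these neighbours were the ligands with the largest differences between knockouts and WT when averaged over the 4 exposures, in lower case 5′ to 3′ on the gene's strand, with the motif TATAAA in capitals. Ccl12 lies at chr11:82101595-82101844 and Ccl8 at chr11:82114935-82115184, both on the plus strand of GRCm38.p6.
Ccl12: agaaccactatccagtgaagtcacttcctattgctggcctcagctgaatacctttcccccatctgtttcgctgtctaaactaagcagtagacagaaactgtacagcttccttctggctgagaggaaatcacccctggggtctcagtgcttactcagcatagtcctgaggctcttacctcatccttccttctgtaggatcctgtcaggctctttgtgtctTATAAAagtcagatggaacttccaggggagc
Ccl8: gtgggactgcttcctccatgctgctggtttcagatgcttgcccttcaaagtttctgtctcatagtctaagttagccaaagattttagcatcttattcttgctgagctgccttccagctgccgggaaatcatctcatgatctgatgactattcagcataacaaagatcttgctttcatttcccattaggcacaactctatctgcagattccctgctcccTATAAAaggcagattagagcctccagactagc

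TATAAA began 31 bases before the start of Ccl12 and 32 bases before the start of Ccl8. Counted on both strands, it was in 3 of the 6 members' windows, the third being that of Ccl9, and in 12.4% of all 32851 windows of 250 bases. The windows of Ccl12 and Ccl8 were identical at 145 of 234 aligned bases, 62.0%, against 47.7% to 57.3% for the other 14 pairs of members. The AP-1 motif TGANTCA was in the window of Ccl9 alone among the 6 and in 6.7% of all windows, where its hits on both strands are the same site. The STAT motif, TTC and GAA with any 3 bases between them, was in none of the 6 and in 7.0% of all windows. The NF-kB consensus was in the windows of Ccr1 and Ccl9 and in 7.3% of all windows. These matches describe letters and were not tested for binding.

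With ozone and the genotypes pooled, the increases that passed at 24 hr were those of Ccl2, Ccl7 and Ccl12. More members passed at 48 hr. The 24 hr result of Ccl12 was lost in 13 of 25 alternative settings. Whether ligands of Ccr2 rose before those of Ccr1 was not tested. With the 3 genotypes averaged, 0 of the 14 probe sets passed the test at 6 hr, 4 passed at 24 hr and 9 at 48 hr. Across all probe sets, 2.9% passed at 6 hr, 5.29% at 24 hr and 10.7% at 48 hr, a call being a limma adjusted p under 0.05 over the 45037 probe sets of a comparison. At 24 hr Ccl7, Ccl2 and Ccl12 were higher and 1 of the 4 Ccr2 probe sets was lower. At 48 hr all 9 were higher, and they covered Ccl2, Ccl3, Ccl7, Ccl8, Ccl12, both Ccl9 probe sets and both Ccr1 probe sets. The median difference of the 8 ligand probe sets was 0.25 at 24 hr and 0.66 at 48 hr, that of the 6 receptor probe sets was -0.05 and 0.43, and that of all probe sets was -0.02 and -0.01. The 0 calls at 6 hr came with 3 of 14 at an unadjusted p under 0.05 in limma, and 3 were called when arrays were weighted by quality. Most differences at 6 hr were decreases: 2 of the 14 were above 0, and the median of the 14 was -0.19.

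**Figure D1:**
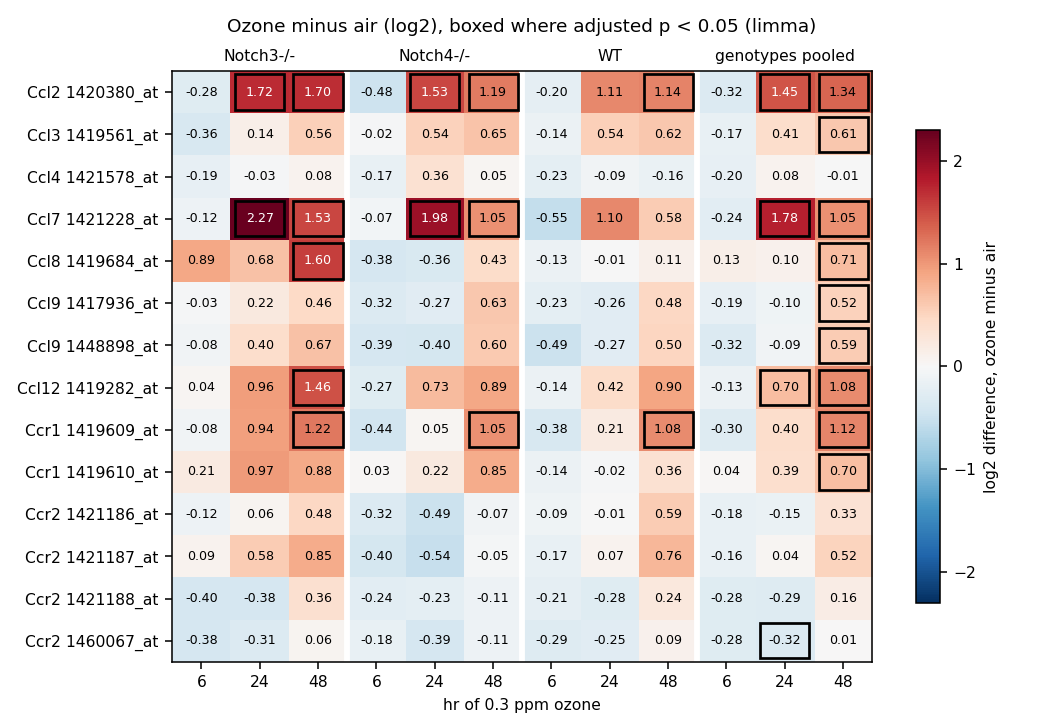
Log2 difference of ozone minus air at 6, 24 and 48 hr (columns) for the 14 probe sets (rows), in Notch3-/-, Notch4-/- and WT mice and with the genotypes pooled, where a black box marks an adjusted p under 0.05 in limma and n is 3 mice per group. Ccl7 at 24 hr is darkest, at 2.27 in Notch3-/- and 1.98 in Notch4-/- mice, and the 6 hr columns hold no box.

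Within genotypes, the same test called 0, 2 and 5 of the 14 probe sets in Notch3-/- mice at 6, 24 and 48 hr, beside 0.16%, 2.72% and 2.46% of all probe sets. For Notch4-/- mice it called 0, 2 and 3, beside 0.00666%, 1.39% and 1.75% of all. In WT mice it called 0, 0 and 2, beside 0%, 0.104% and 1.89% of all. The 14 probe sets included 2, 0 and 1 with an unadjusted p under 0.05 at 6 hr in Notch3-/-, Notch4-/- and WT mice, and 3 at 24 hr in WT mice. ANOVA with Tukey test, the test named in the study's methods, also called none in these 4 comparisons, and the quality-weighted limma fit called 2 in WT mice at 24 hr and none in the other 3. Of the calls within genotypes at 24 and 48 hr, ANOVA with Tukey test kept 3 in Notch3-/- mice (Ccl2 at both times and Ccl7 at 24 hr), 1 in Notch4-/- mice (Ccl7 at 24 hr) and 0 in WT mice.

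Ccl2, the main ligand of Ccr2, had a mean below its air level at 6 hr and well above it from 24 hr in each genotype. In Notch3-/- mice its level was -0.58, -0.85 and -0.98 in air, -1.16, -0.79 and -1.32 at 6 hr, 0.72, 1.10 and 0.92 at 24 hr, and 1.05, 1.30 and 0.33 at 48 hr. In Notch4-/- mice it was -0.36, 0.05 and -0.71 in air, -0.91, -0.64 and -0.91 at 6 hr, 0.72, 1.61 and 1.25 at 24 hr, and 0.62, 1.43 and 0.51 at 48 hr. In WT mice it was -1.07, -0.69 and -0.63 in air, -0.86, -0.98 and -1.14 at 6 hr, -0.05, 0.44 and 0.54 at 24 hr, and 0.34, 0.29 and 0.40 at 48 hr. In each genotype every mouse at 24 and 48 hr was above every air mouse of that genotype. The increase in Notch3-/- mice was 3.29-fold at 24 hr (log2 difference 1.72 ± 0.245 SE, adjusted p = 0.00017) and 3.24-fold at 48 hr (1.70 ± 0.245, adjusted p = 9.6e-05). In Notch4-/- mice it was 2.89-fold at 24 hr (1.53, adjusted p = 0.0015) and 2.29-fold at 48 hr (1.19, adjusted p = 0.008). In WT mice the difference at 24 hr was 1.11 (95% interval 0.60 to 1.61, adjusted p = 0.072), which did not pass, and at 48 hr the increase was 2.20-fold (1.14, adjusted p = 0.0083). The WT difference at 24 hr passed under 4 alternatives: array weights (adjusted p = 0.0096), WT arrays alone (0.029), adjustment over all comparisons (0.014) and a replicate block (0.015). The 24 hr call in Notch4-/- mice was lost with ANOVA and Tukey test (adjusted p = 0.25) and when only arrays of that genotype were fitted (adjusted p = 0.068). Without air mice 1 and 2 the Notch4-/- differences were 1.90 at 24 hr (adjusted p = 0.0019) and 1.56 at 48 hr (adjusted p = 0.011). The 48 hr call in Notch4-/- mice was lost without air mouse 3 (1.01, adjusted p = 0.087) or 48 hr mouse 2 (0.90, adjusted p = 0.078), and that in WT mice without air mouse 1 (1.0, adjusted p = 0.071).

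Ccl7, a neighbour of Ccl2 that binds Ccr1, Ccr2 and Ccr3, showed the largest ozone difference of the 14 probe sets and a maximum at 24 hr. In Notch3-/- mice its level was -0.54, -0.33 and -0.20 in air, -0.56, -0.48 and -0.39 at 6 hr, 1.61, 1.80 and 2.31 at 24 hr, and 1.63, 1.26 and 0.62 at 48 hr. In Notch4-/- mice it was -0.45, -0.02 and -0.63 in air, -0.53, -0.31 and -0.46 at 6 hr, 1.04, 2.08 and 1.71 at 24 hr, and 0.79, 0.95 and 0.33 at 48 hr. In WT mice it was -0.46, -0.21 and -0.43 in air, -0.93, -1.16 and -0.65 at 6 hr, 0.19, 0.88 and 1.14 at 24 hr, and 0.33, 0.27 and 0.02 at 48 hr. All 9 mice at 24 hr and all 9 at 48 hr were above all 9 air mice. At 24 hr Ccl7 was 4.81-fold above air in Notch3-/- mice (log2 difference 2.27 ± 0.251 SE, adjusted p = 4.7e-06) and 3.93-fold in Notch4-/- mice (1.98, adjusted p = 0.0001). In WT mice the difference was 1.10 (95% interval 0.59 to 1.62, adjusted p = 0.083), and it passed with array weights (adjusted p = 0.011), with adjustment over all comparisons (0.017) and without WT 24 hr mouse 1 (1.38, adjusted p = 0.018). At 48 hr it was 1.53 in Notch3-/- mice (adjusted p = 0.00039), 1.05 in Notch4-/- mice (adjusted p = 0.023) and 0.58 in WT mice (adjusted p = 0.37). Between 24 and 48 hr, with the genotypes averaged, Ccl7 fell by 0.73 (adjusted p = 0.0021), while Ccl2 differed by -0.11 (95% interval -0.40 to 0.18). Leaving out Notch4-/- air mouse 1 or 3, or 48 hr mouse 1 or 2, ended the 48 hr call in Notch4-/- mice, with adjusted p between 0.083 and 0.14. Leaving out air mice 1 and 2 together gave 2.24 at 24 hr (adjusted p = 0.00076) and 1.32 at 48 hr (adjusted p = 0.049).

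Ccl12, a mouse ligand of Ccr2, was above air at 24 and 48 hr with the genotypes pooled. Notch3-/- mice had levels of -0.05, -0.10 and 0.01 in air, -0.13, 0.10 and -0.01 at 6 hr, 0.50, 0.62 and 1.62 at 24 hr, and 1.43, 1.18 and 1.62 at 48 hr. Notch4-/- mice had 0.06, 0.37 and -0.22 in air, -0.19, -0.35 and -0.07 at 6 hr, 0.28, 1.31 and 0.82 at 24 hr, and 0.82, 1.65 and 0.41 at 48 hr. WT mice had -0.78, -0.17 and -1.05 in air, -1.84, -0.30 and -0.27 at 6 hr, -0.65, -0.06 and -0.03 at 24 hr, and 0.21, 0.51 and -0.02 at 48 hr. Every 48 hr mouse was above the air mice of its own genotype, and WT mouse 1 at 6 hr was the lowest of the 36 by more than 0.7. With the genotypes averaged the difference was 0.70 ± 0.198 SE at 24 hr (adjusted p = 0.035) and 1.08 ± 0.198 at 48 hr (adjusted p = 0.00034). The 24 hr call was lost in 13 of 25 alternative settings, with adjusted p up to 0.083 and differences between 0.59 and 0.80, whereas the 48 hr call was kept in all 25. Within genotypes only the 48 hr difference of Notch3-/- mice passed (1.46, adjusted p = 0.016), and it was lost without air mouse 1 or 2 or without 48 hr mouse 1 or 3 (adjusted p 0.063 to 0.069). The 48 hr differences in Notch4-/- and WT mice were 0.89 and 0.90 (adjusted p = 0.23 and 0.26).

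Ccl8 was low in WT mice at every time, with no WT group mean above -0.84. WT means were also the lowest of the genotypes at every exposure for Ccl3, Ccl4, Ccl7 and Ccl12. Notch3-/- mice had levels of -0.63, 0.14 and -0.52 in air, 0.26, 1.11 and 0.30 at 6 hr, 0.06, -0.01 and 0.97 at 24 hr, and 1.49, 1.46 and 0.84 at 48 hr. Notch4-/- mice had 0.40, 0.32 and 0.12 in air, 0.38, -0.30 and -0.39 at 6 hr, 0.01, -0.30 and 0.04 at 24 hr, and 0.81, 0.61 and 0.69 at 48 hr. WT mice had -1.32, -0.45 and -1.08 in air, -1.33, -1.18 and -0.71 at 6 hr, -1.21, -0.75 and -0.93 at 24 hr, and -1.53, -0.51 and -0.49 at 48 hr. All 12 Notch4-/- mice were above all 12 WT mice, and of the 12 Notch3-/- mice only air mice 1 and 3 lay within the WT range. Ozone changed Ccl8 in Notch3-/- mice at 48 hr (3.02-fold, log2 difference 1.60 ± 0.296 SE, adjusted p = 0.0015), while the 48 hr differences were 0.43 in Notch4-/- mice (adjusted p = 0.59) and 0.11 in WT mice (95% interval -0.50 to 0.72, adjusted p = 0.96). The pooled increase at 48 hr was 0.71 (adjusted p = 0.0056).

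**Figure D2:**
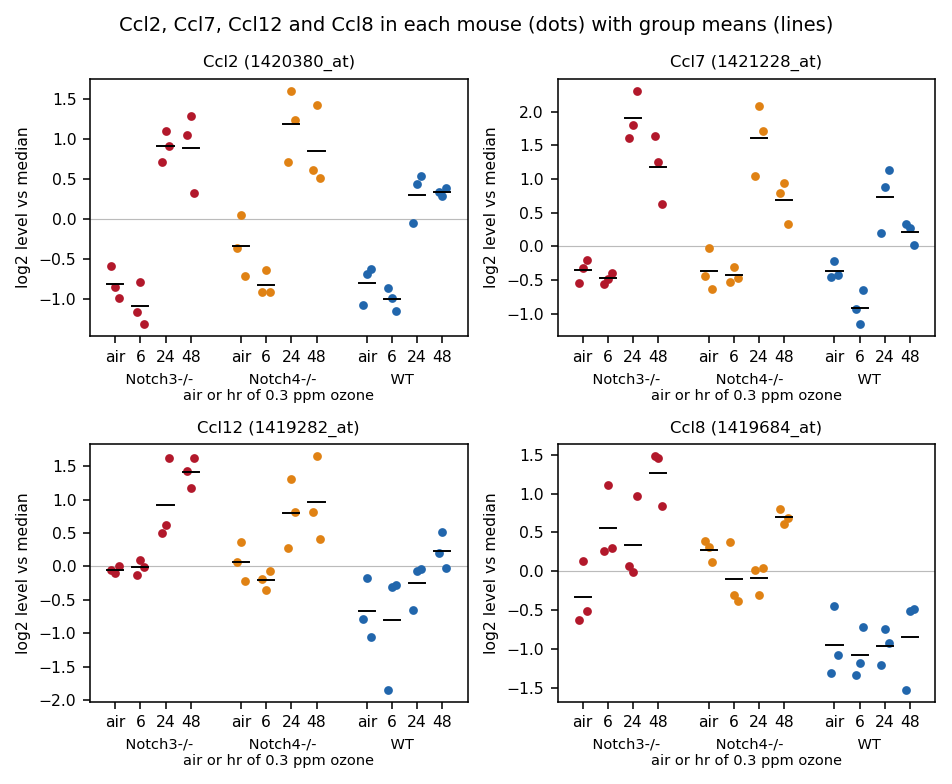
Level of Ccl2, Ccl7, Ccl12 and Ccl8 (log2 relative to the probe set's median over 36 arrays) in each mouse, with Notch3-/-, Notch4-/- and WT mice from left to right and air, 6, 24 and 48 hr of ozone within each, where dots are mice and lines are means of 3. Ccl2 and Ccl7 step up between 6 and 24 hr, and the WT dots of Ccl8 all lie at -0.45 or below.

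Ccl3, Ccl4 and Ccl9 moved less. Ccl3, a ligand of Ccr1, ranged over 9 mice from -0.85 to 0.11 in air (median -0.11), from -0.91 to -0.08 at 6 hr (-0.33), from -0.21 to 0.79 at 24 hr (0.04) and from -0.28 to 0.82 at 48 hr (0.45). The 9 mice of each ozone time overlapped the 9 air mice, while within Notch3-/- mice the 48 hr levels (0.39 to 0.73) lay above those in air (-0.23 to 0.11). The pooled difference from air was 0.41 ± 0.149 SE at 24 hr (adjusted p = 0.11) and 0.61 ± 0.149 at 48 hr (1.53-fold, adjusted p = 0.0063). The 48 hr difference was 0.56, 0.65 and 0.62 in Notch3-/-, Notch4-/- and WT mice, and none of these 3 passed alone. Without Notch4-/- air mice 1 and 2 the pooled differences of Ccl3 were 0.57 at 24 hr and 0.77 at 48 hr. Ccl4, a chemokine that attracts monocytes and T cells, had the narrowest spread of the ligands, with group means between -0.24 and 0.38. Its pooled differences from air were -0.20, 0.08 and -0.01 at 6, 24 and 48 hr, and the last had a 95% interval of -0.19 to 0.17. Only its step from 6 to 24 hr passed (0.27, adjusted p = 0.042), and that call was lost in 13 of 24 alternative settings.

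Ccl9, a ligand of Ccr1 made by macrophages and other myeloid cells, was higher at 48 hr alone. Probe set 1417936_at ranged from -0.48 to 0.52 in air, -0.47 to 0.21 at 6 hr, -0.44 to 0.46 at 24 hr and -0.03 to 1.21 at 48 hr. Probe set 1448898_at ranged from -0.57 to 0.51, -0.82 to 0.00, -0.45 to 0.63 and 0.00 to 1.30 at the same exposures. The highest 48 hr values of both probe sets came from Notch4-/- mouse 2 and WT mouse 3, and each genotype overlapped its air mice. The pooled 48 hr differences were 0.52 ± 0.153 SE (adjusted p = 0.024) and 0.59 ± 0.170 (adjusted p = 0.022), and no genotype passed alone. Without Notch4-/- air mice 1 and 2 they were 0.40 (adjusted p = 0.18) and 0.48 (adjusted p = 0.15). The pooled 48 hr calls were lost in 7 and 8 of 25 alternative settings, among them the leaving out of single mice. The step from 24 to 48 hr, which uses no air mouse, was 0.63 (adjusted p = 0.012) and 0.68 (adjusted p = 0.014).

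Between the receptors, Ccr1 rose with ozone and Ccr2 did not pass at 48 hr. Ccr1 probe set 1419609_at had levels of -0.14, -0.39 and 0.21 in air and 1.27, 1.04 and 1.03 at 48 hr in Notch3-/- mice. Levels in Notch4-/- mice were -0.10, 0.28 and -0.02 in air and 1.04, 1.63 and 0.66 at 48 hr. Levels in WT mice were -1.45, -0.23 and -0.24 in air and 0.33, 0.34 and 0.65 at 48 hr. All 9 mice at 48 hr were above all 9 air mice. The 48 hr increase was 2.33-fold in Notch3-/- mice (log2 difference 1.22 ± 0.270 SE, adjusted p = 0.0094), 2.08-fold in Notch4-/- mice (1.05, adjusted p = 0.038) and 2.12-fold in WT mice (1.08, adjusted p = 0.029). WT air mouse 1 was more than 1 below the other WT air mice, and without it the WT difference was 0.68 (adjusted p = 0.26). Leaving out any WT mouse at 48 hr also ended the WT call (adjusted p 0.057 to 0.14). In Notch4-/- mice the call was lost without air mouse 1 or 3, without 48 hr mouse 1 or 2 (adjusted p 0.082 to 0.24), and without air mice 1 and 2 together (1.13, adjusted p = 0.16). In Notch3-/- mice it was lost without air mouse 2 (adjusted p = 0.075) or 48 hr mouse 1 (adjusted p = 0.06). The pooled 48 hr increase of 1.12 ± 0.156 (adjusted p = 8.2e-06) passed in all 25 alternatives.

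The other Ccr1 probe set, 1419610_at, gave a pooled 48 hr difference of 0.70 ± 0.173 SE (adjusted p = 0.0074), with 0.88, 0.85 and 0.36 in Notch3-/-, Notch4-/- and WT mice, none passing alone. At 24 hr the Ccr1 probe sets differed from air by 0.94 (adjusted p = 0.055) and 0.97 (adjusted p = 0.074) in Notch3-/- mice, against 0.05 and 0.22 in Notch4-/- mice and 0.21 and -0.02 in WT mice. In Notch3-/- mice the 24 hr levels of both probe sets, from 0.64 to 1.02 and from 0.91 to 1.21, lay above the air levels of the same genotype. These Notch3-/- differences lay near the threshold: 1419609_at passed under 7 alternatives (adjusted p 0.0073 to 0.05), among them the replicate block (0.04), and 1419610_at under 3 (adjusted p 0.0051 to 0.04).

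Ccr2, the receptor of Ccl2, Ccl7 and Ccl12 on inflammatory monocytes, had pooled 48 hr differences of 0.33, 0.52, 0.16 and 0.01 by its probe sets 1421186_at, 1421187_at, 1421188_at and 1460067_at, with adjusted p between 0.18 and 0.96. At 24 hr probe set 1460067_at was lower (-0.32 ± 0.085 SE, adjusted p = 0.026), while the other 3 were at -0.15, 0.04 and -0.29 and did not pass. That call was lost in 9 of 25 alternative settings, with adjusted p up to 0.075. Without Notch4-/- air mice 1 and 2 the pooled 24 hr difference of 1460067_at was -0.40. Its levels over 9 mice ran from -0.25 to 0.49 in air and from -0.39 to 0.00 at 24 hr, so the groups overlapped. At 6 hr it did not pass in the pooled comparison, and did so in 6 of 25 alternative settings, at differences of -0.37 to -0.24. From 24 to 48 hr the same probe set rose by 0.33 (adjusted p = 0.017). Mice of 1 group differed widely: Notch3-/- air mouse 3 was at 0.94, 0.96 and 1.26 by 1421186_at, 1421187_at and 1421188_at, where the other air mice of its genotype lay between -0.87 and -0.06. Without that mouse the 48 hr difference of 1421187_at in Notch3-/- mice was 1.43 and passed (adjusted p = 0.046), the only alternative in which Ccr2 did so within a genotype. The pooled 48 hr difference of 1421187_at was then 0.71 (adjusted p = 0.026).

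**Figure D3:**
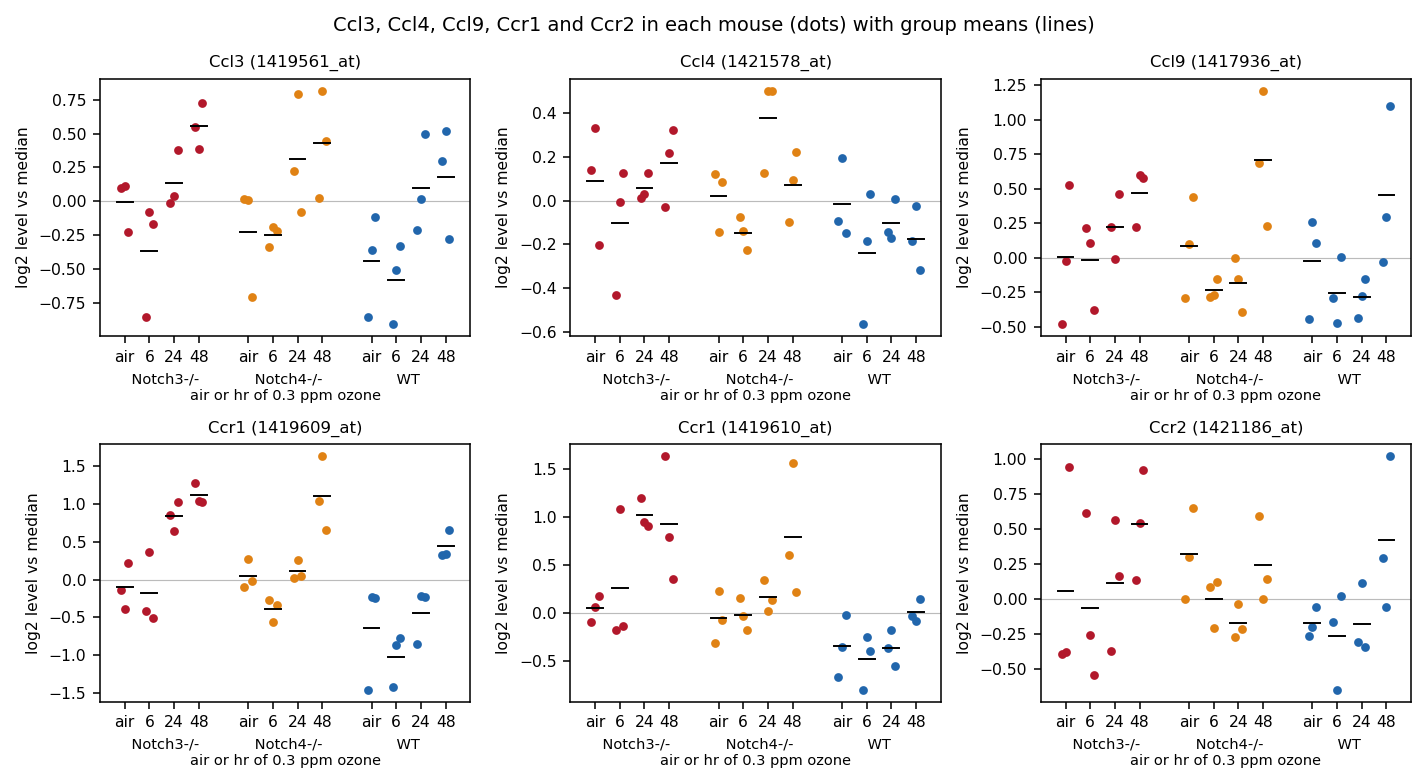
Level of Ccl3, Ccl4, Ccl9, both Ccr1 probe sets and 1 Ccr2 probe set (log2 relative to the probe set's median over 36 arrays) in each mouse, with Notch3-/-, Notch4-/- and WT mice from left to right and air, 6, 24 and 48 hr of ozone within each, where dots are mice and lines are means of 3. Vertical scales differ between panels, and the 48 hr dots of Ccr1 1419609_at lie above every air dot.

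The steps between ozone times, averaged over genotypes, do not use the air mice. From 6 to 24 hr 6 of the 14 probe sets passed, beside 12.7% of all, and all 6 were higher: Ccl7 (2.03), Ccl2 (1.77), Ccl12 (0.83), Ccr1 1419609_at (0.70), Ccl3 (0.58) and Ccl4 (0.27). From 24 to 48 hr 6 passed, beside 6.71% of all, with Ccr1 1419609_at (0.72), both Ccl9 probe sets, Ccl8 (0.61) and Ccr2 1460067_at (0.33) higher and Ccl7 lower. Ccl8 differed by -0.03 from 6 to 24 hr (95% interval -0.38 to 0.32), and its second step was lost in 9 of 24 alternative settings (adjusted p up to 0.076). The averages cover group means of Ccl8 that ran differently by genotype, though no difference of ozone differences passed for Ccl8. Its means in air and at 6, 24 and 48 hr were -0.34, 0.56, 0.34 and 1.26 in Notch3-/- mice. They were 0.28, -0.10, -0.08 and 0.70 in Notch4-/- mice and -0.95, -1.08, -0.96 and -0.84 in WT mice. The 6 hr difference from air did not pass in any genotype.

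Knockout and WT mice were compared at each exposure, which asks whether loss of a Notch receptor went with other chemokine levels before and during ozone. In air, 0 of the 14 probe sets passed in Notch3-/- against WT mice (0.486% of all passed) and 0 in Notch4-/- against WT mice (0.482% of all), where 1 and 3 had an unadjusted p under 0.05. ANOVA with Tukey test also called none, and the quality-weighted fit called 0 and 1. The 1 was Ccl8 in Notch4-/- air mice, which were 1.23 above WT air mice in the unweighted fit (95% interval 0.62 to 1.83, adjusted p = 0.056) and 1.06 above without air mice 1 and 2 (adjusted p = 0.27). At 6 hr Ccl8 alone passed in Notch3-/- mice, 3.11-fold above WT (1.64 ± 0.296 SE, adjusted p = 0.0023, beside 0.921% of all probe sets).

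At 24 hr 4 probe sets passed in Notch3-/- against WT mice, beside 1.28% of all, and all 4 were higher: Ccl7 (1.17, adjusted p = 0.012), Ccl8 (1.30, adjusted p = 0.021) and Ccr1 by 1419609_at (1.27, adjusted p = 0.011) and 1419610_at (1.39, adjusted p = 0.013). In each of the 4 the 3 Notch3-/- mice were above the 3 WT mice. The share of all probe sets whose groups did not overlap was not counted. Separation of groups, here and elsewhere, therefore describes these mice and is not a result about the members. None of the 4 passed without WT 24 hr mouse 1 (adjusted p 0.059 to 0.14) or without Notch3-/- 24 hr mouse 3 (adjusted p 0.052 to 0.24), where the differences stayed between 0.90 and 1.45. Ccl2 at 24 hr was 0.60 above WT in Notch3-/- mice (adjusted p = 0.27) and 0.88 above WT in Notch4-/- mice (adjusted p = 0.091, or 0.034 with a replicate block), without overlap of mice in either. At 48 hr Ccl8 was 4.29-fold above WT in Notch3-/- mice (2.10 ± 0.296, adjusted p = 9.7e-05, beside 1.07% of all) and 2.91-fold above WT in Notch4-/- mice (1.54, adjusted p = 0.007, beside 0.471% of all). The Notch4-/- call was lost without WT 48 hr mouse 1 (1.20, adjusted p = 0.13) and with ANOVA and Tukey test (adjusted p = 0.91). That test also lost the 6 hr call of Ccl8 in Notch3-/- mice (adjusted p = 0.38) and all 4 calls at 24 hr, and kept Ccl8 at 48 hr in Notch3-/- mice. Ccl7 at 48 hr was 0.96 above WT in Notch3-/- mice (adjusted p = 0.056), and passed under 7 alternatives, among them the replicate block (adjusted p = 0.046). In Notch4-/- mice 0 probe sets passed at 6 hr (0.642% of all) and 0 at 24 hr (0.764% of all), where 3 and 5 had an unadjusted p under 0.05, ANOVA with Tukey test called none, and the weighted fit called 1 and 3.

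Averaged over the 4 exposures, a comparison added after these values were seen, 5 of the 14 probe sets passed in Notch3-/- against WT mice, beside 5.68% of all, and 6 in Notch4-/- against WT mice, beside 5.76% of all. All were higher in the knockouts. Ccl8 led both, at 2.66-fold in Notch3-/- mice (1.41 ± 0.148 SE, adjusted p = 1e-07) and 2.23-fold in Notch4-/- mice (1.16 ± 0.148, adjusted p = 4.2e-06). Its 12 mice per genotype ran from -0.63 to 1.49 (median 0.28) in Notch3-/-, from -0.39 to 0.81 (0.22) in Notch4-/- and from -1.53 to -0.45 (-1.0) in WT. Ccl12 was 0.94 above WT in Notch3-/- mice (adjusted p = 0.00052) and 0.78 above in Notch4-/- mice (adjusted p = 0.0043). Its ranges overlapped, from -0.13 to 1.62 in Notch3-/-, from -0.35 to 1.65 in Notch4-/- and from -1.84 to 0.51 in WT.

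Ccr1 followed, with 0.83 and 0.86 above WT in Notch3-/- mice (adjusted p = 0.00011 and 0.00028) and 0.63 and 0.52 in Notch4-/- mice (adjusted p = 0.0031 and 0.035). Ccl7 was 0.65 above WT in Notch3-/- mice (adjusted p = 0.00098) and 0.46 in Notch4-/- mice (adjusted p = 0.025). The Notch4-/- calls of Ccr1 1419610_at and Ccl7 were lost in 12 and 6 of 32 alternatives, among them the leaving out of single mice. Their Notch3-/- calls were kept in all 32. Ccl2 was 0.51 above WT in Notch4-/- mice (adjusted p = 0.0098) and 0.26 in Notch3-/- mice (95% interval 0.01 to 0.51, adjusted p = 0.28). Ccl3, Ccl4 and both Ccl9 probe sets differed by 0.12 to 0.27 and the Ccr2 probe sets by 0.06 to 0.47, none passing in either knockout. The Ccr2 probe sets 1421188_at and 1460067_at passed in Notch3-/- mice when single mice were left out (0.50 to 0.53 and 0.23 to 0.28, adjusted p 0.015 to 0.047). The median over the 14 was 0.26 in Notch3-/- and 0.31 in Notch4-/- mice, against 0.00 over all probe sets in both. Without Notch4-/- air mice 1 and 2 the Notch4-/- differences of Ccl8 (1.12, adjusted p = 0.00011), Ccl12 (0.71, adjusted p = 0.029) and Ccr1 1419609_at (0.62, adjusted p = 0.015) passed. Those of Ccl2 (0.42, adjusted p = 0.062), Ccl7 (0.39, adjusted p = 0.094) and Ccr1 1419610_at (0.52, adjusted p = 0.07) then did not, and Ccr2 1460067_at did (0.29, adjusted p = 0.028).

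**Figure D4:**
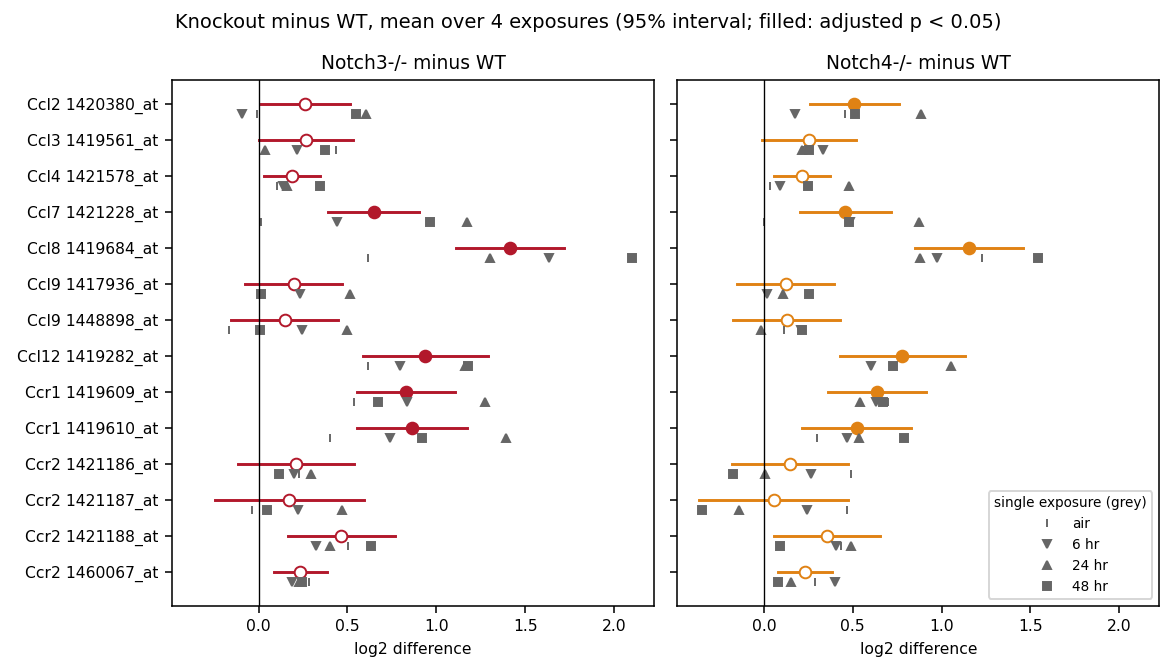
Log2 difference of each knockout minus WT for the 14 probe sets, where the circle is the mean over air, 6, 24 and 48 hr (12 mice per genotype), the bar its 95% interval, a filled circle an adjusted p under 0.05 in limma, and grey marks are the 4 single exposures. The Ccl8 circles lie farthest right at 1.41 and 1.16, and the Ccl9 intervals include 0 in both panels.

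Whether ozone moved the chemokines further in a knockout than in WT was tested as the difference of the ozone differences. At each of 3 times in each knockout 0 of the 14 passed in limma. Of all probe sets, 0.00888%, 0.00444% and 0.00222% passed at 6, 24 and 48 hr in Notch3-/- against WT mice, and 0%, 0% and 0.00222% in Notch4-/- against WT mice. An unadjusted p under 0.05 was found for 6 of 84 such tests: Ccl7 in Notch3-/- mice at 24 hr (1.16 ± 0.354 SE) and 48 hr (0.95) and in Notch4-/- mice at 24 hr (0.87), Ccl8 in Notch3-/- mice at 6 hr (1.02) and 48 hr (1.49), and Ccr1 1419610_at in Notch3-/- mice at 24 hr (0.99). Their adjusted p lay between 0.43 and 1. The share of all probe sets at an unadjusted p under 0.05 was not counted. Counts at that p, here and elsewhere, are therefore not results about the members. The quality-weighted fit called 1, Ccl7 in Notch3-/- mice at 24 hr (1.17). A Ccl2 or Ccl7 call at 24 hr in the knockouts beside none in WT is therefore not a shown difference between genotypes. Nor is the Ccl8 call at 48 hr in Notch3-/- mice beside none in WT a shown difference in ozone response.

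Notch3-/- and Notch4-/- mice were not told apart by any of the 14 probe sets: 0 passed at each of 4 exposures, beside 0.0866% of all in air, 0.206% at 6 hr, 0.38% at 24 hr and 0.311% at 48 hr. In limma 1, 1, 3 and 0 had an unadjusted p under 0.05, ANOVA with Tukey test called none, and the weighted fit called 1, 0, 1 and 0. The largest differences were those of Ccr1 at 24 hr, where 1419610_at was 0.85 higher in Notch3-/- than in Notch4-/- mice (95% interval 0.24 to 1.47) and 1419609_at 0.73 higher (0.18 to 1.28), without overlap of mice in either.

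Some members had like patterns over the 12 group means, which share their arrays, so the correlations are descriptions. Ccl2 and Ccl7 correlated at r = 0.93 over the group means and 0.66 over mice after group means were removed. Ccl12 and Ccr1 1419609_at correlated at 0.94, Ccl12 and Ccl8 at 0.80, and Ccl2 and Ccl8 at 0.39. Probe sets of 1 gene correlated over group means at 0.97 for Ccl9, 0.92 for Ccr1 and 0.57 to 0.93 for Ccr2, so the 4 Ccr2 probe sets did not give 1 common pattern. Among 34931 probe sets of other genes, those most like Ccl2 were St3gal1 (r = 0.99), Tgoln1 (0.988), Tnc (0.985), Adamts4 (0.985) and the neutrophil chemokine Cxcl3 (0.984). Ccl7 was most like Adamts4 (0.975) and Zc3h15 (0.973), Ccl8 most like Sh3bgrl2 (0.951) and the complement gene C1qa (0.947), and Ccl9 most like Mcemp1 (0.979) and Lgals1 (0.967). Ccl12 was most like D730005E14Rik (0.96) and Rab3il1 (0.959), Ccr1 most like Atg3 (0.98) and Clec5a (0.969), and Ccl3 most like Lactb (0.974) and Rad23b (0.971). The highest values for Ccl4, Gjb1 at 0.956 and Nsmf at 0.934, and for Ccr2, Hmgb2 at 0.935 and Dsn1 at 0.928, were lower than those for Ccl2.

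Other chemokines of the lung were set beside the members, each gene read by 1 probe set. Of all probe sets, 3.19% were higher at 24 hr and 6.72% at 48 hr with the genotypes pooled. Of 11 other CC chemokines measured, 4 were higher in the pooled comparison at 24 hr and 4 at 48 hr and none lower (median difference 0.18 and 0.06). Ccl17, a ligand of Ccr4, was 1.65 above air at 24 hr and 1.67 at 48 hr, Ccl22, which shares that receptor, 1.41 and 0.80, and Ccl20, the ligand of Ccr6, 1.27 and 1.32, all past the test. Of 7 neutrophil-attracting CXC chemokines 5 were higher at 24 hr and 5 at 48 hr (median 1.17 and 1.06), led by Cxcl5 (3.02 and 1.82), Cxcl3 (2.76 and 2.68) and Cxcl1 (1.95 and 1.31). Of 19 other chemokine receptors 0 were higher and 0 lower at 24 hr, and 0 were higher and 2 lower at 48 hr, with Cxcr3 at -0.27 (adjusted p = 0.012). Of 9 other monocyte recruitment and growth factors 3 were higher at 24 hr and 2 at 48 hr, with the adhesion molecules Icam1 at 0.30 and 0.33, Selp at 0.35 and 0.50, and Sele at 0.93 (adjusted p = 8e-06) and 0.26 (adjusted p = 0.18). Of 16 NF-kB cytokines and feedback genes 10 were higher at 24 hr and 11 at 48 hr, led by Il6 (3.05 and 2.56), Socs3 (1.38 and 1.31) and Bcl3 (1.12 and 0.92).

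Markers of the cells that carry or make these chemokines were read in the same way. Of all probe sets, 3.19% were higher at 24 hr and 6.72% at 48 hr with the genotypes pooled. With the genotypes pooled, 2 of 13 monocyte markers were higher at 24 hr and 3 at 48 hr, with Cd14 at 0.84 and 0.83 and Vcan at 0.59 and 0.99, while the median of the 13 was -0.004 and 0.13. Of 16 macrophage markers 1 was higher at 24 hr, and 7 were higher and 1 lower at 48 hr, with Marco at 0.92, Msr1 at 0.81 and Cd68 at 0.75, and the median of the 16 was -0.03 and 0.30. The mean level of the 16 ran at 48 hr from 0.28 to 0.42 in Notch3-/-, 0.10 to 0.26 in Notch4-/- and -0.03 to 0.13 in WT mice, beside air levels of -0.10 to 0.07, -0.34 to 0.07 and -0.36 to 0.06. Of 12 neutrophil markers 1 was higher at 24 hr and 2 at 48 hr, with Lcn2, which epithelium also makes, at 1.29 and 1.53, while the median of the 12 was -0.06 and -0.10.

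Averaged over exposures, 3.28% of all probe sets were higher than in WT in Notch3-/- mice and 2.87% in Notch4-/- mice. Of 12 neutrophil markers, 8 were higher than in WT in Notch3-/- mice and 8 in Notch4-/- mice (median difference 0.77 and 0.57). Their mean level ran from -0.10 to 1.24 over the 12 Notch3-/- mice, from -0.17 to 0.67 over the 12 Notch4-/- mice and from -0.74 to -0.14 over the 12 WT mice. Of 13 monocyte markers 6 and 2 were higher (medians 0.47 and 0.22), and of 16 macrophage markers 5 were higher and 1 lower in Notch3-/- mice and 3 were higher in Notch4-/- mice (medians 0.22 and -0.06). The mean monocyte marker level ran from -0.19 to 0.48 in Notch3-/-, -0.07 to 0.22 in Notch4-/- and -0.41 to 0.24 in WT mice. Which of these markers were at or near background could not be read from centred values. The part of such cells in the higher Ccl8, Ccl12 and Ccr1 of the knockouts, and in the 48 hr increases, was not tested.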

How the data were processed

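RNA of the left lung of 36 mice was hybridised to 36 arrays, 3 mice in each of 12 groups. The authors summarised probes by RMA in GeneSpring GX and deposited 1 log2 value per probe set and array. Every probe set had a median of 0 over the arrays. The sources used here do not mention this centring, which leaves differences between groups as they were. Array medians lay between -0.028 and 0.028. Read depth does not apply to arrays, and the number of arrays limits the precision.

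After 64 control probe sets were left out, 45037 were tested. The platform annotation gave 34945 of these 1 symbol, 932 several and 9160 none, and those with several were not named. A linear model of 12 group means was fitted with limma 3.58.1 in R 4.3.3, with empirical Bayes moderation and Benjamini-Hochberg adjustment within each comparison at a threshold of 0.05. It was tested on simulated data. Pooled comparisons weighted the 3 genotypes equally. The average over exposures of knockout minus WT was added after values had been seen. The members and lists were chosen with earlier results of these data known. All members were named, with up to 3 genes of each list by the size of the pooled ozone difference at any time, and the probe sets closest to each member by Pearson correlation of group means (5 for Ccl2 and 2 for the others). Genes of lists were read by 1 probe set each. Mice of the study were exposed in several groups, per the legends of other assays, and the exposure group or scan date of each array was not given in the sources used here. Array weights, ANOVA with Tukey test, quantile normalization once more, fits on the genotypes compared alone, adjustment over all comparisons, a replicate block and leaving out each mouse were tried as alternatives.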

Additional observations from a re-analysis of the deposited data

How the results depend on the processing

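The counts of calls over the 14 probe sets were summed by kind of comparison. They were 7 for ozone in Notch3-/- mice, 5 in Notch4-/- mice and 2 in WT mice over 3 times, 13 pooled and 12 for the steps between times. For Notch3-/- against WT they were 6, for Notch4-/- against WT 1, for Notch3-/- against Notch4-/- 0, for the differences of ozone differences 0 and for the average over exposures 11. No difference changed sign in a call. Array weights gave 11 for ozone in Notch3-/- mice, 8 in Notch4-/- mice, 10 for Notch3-/- against WT, 6 for Notch4-/- against WT, 2 for Notch3-/- against Notch4-/- and 1 for the differences of ozone differences. The 2 were Ccl8 in air (-0.78, adjusted p = 0.043) and Ccr1 1419610_at at 24 hr (0.89, adjusted p = 0.043). ANOVA with Tukey test gave 3, 1 and 0 for ozone in Notch3-/-, Notch4-/- and WT mice, 1 for Notch3-/- against WT and 0 for Notch4-/- against WT, and has no form for the pooled comparisons. A repeated quantile normalization gave 3 for ozone in Notch4-/- mice and 3 for Notch4-/- against WT. Fitting only the genotypes compared gave 1 for ozone in Notch4-/- mice and 2 for Notch4-/- against WT. Adjustment over all comparisons together gave 4 for ozone in WT mice and 2 for Notch4-/- against WT. The cause of these shifts was not tested.

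Replicate numbers were not taken to pair the mice, because only 89 of 198 same-numbered pairs had deviations from group means that correlated over 0.1 (median 0.074, against -0.05 for different numbers). As a hint from the data that numbers may share something, 22 of 36 arrays correlated best with their own number. With the replicate number as a block the count of Notch4-/- against WT calls was 2, with Ccl2 at 24 hr added (0.88, adjusted p = 0.034). The block also added Ccl2 at 24 hr in WT mice (adjusted p = 0.015), Ccr1 1419609_at at 24 hr in Notch3-/- mice (0.04), Ccl7 at 48 hr in Notch3-/- against WT mice (0.046) and Ccr2 1460067_at in Notch3-/- against WT mice averaged over exposures (0.045), and changed no other call of the 14 probe sets. Leaving out 1 mouse at a time gave 5 to 9 for ozone in Notch3-/- mice, 2 to 5 in Notch4-/- mice, 0 to 3 in WT mice, 10 to 14 pooled, 3 to 8 for Notch3-/- against WT and 1 to 2 for Notch4-/- against WT. It gave 9 to 14 for the average over exposures and 0 in each case for Notch3-/- against Notch4-/- and for the differences of ozone differences. Leaving out Notch4-/- air mice 1 and 2, chosen with their Notch4 signal known, gave 4 for ozone in Notch4-/- mice, 13 pooled and 9 for the average over exposures. Dim probe sets could not be set apart, because centring removed signal over background.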

Other observations

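At 48 hr of ozone, with the genotypes pooled, 4 of 8 endothelial markers were lower and none higher, with the receptor Tie1 at -0.54, Emcn at -0.52 and Pecam1 at -0.42, beside 10.7% of all probe sets called in either direction. At 24 hr none of the 8 passed in either direction. Averaged over exposures, 2 of the 8 were lower in Notch3-/- than in WT mice and 2 in Notch4-/- than in WT mice, beside 5.68% and 5.76% of all probe sets called.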
